A study of Mus musculus with 2 samples.

Results

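Blood-cell miRNAs are small RNAs made mainly in red cell precursors and white cells, and muscle tissue contains both kinds of cell in its vessels and between its fibres. Here 7 such genes were followed, listed by symbol for their known cell types, out of 2202 miRNA genes counted. The erythroid members were Mir451a and Mir144, and the leukocyte members were Mir142, Mir223, Mir150, Mir155 and Mir146. All 7 were found in the count tables, and all 7 passed the detection limit of 2 CPM (counts per 1000000 gene-assigned reads) in both libraries.

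The tissue was the gastrocnemius, the main calf muscle, of female B6CASTF1/J mice (first-generation hybrids between the laboratory strain C57BL/6J and the wild-derived CAST/EiJ), 4 days after birth. There was 1 group of 2 libraries, which the labels list as biological replicates from separately numbered females. Both carry the same donor entry in the labels, so an SD over n = 2 measures the spread between these samples, and that they are separate animals rests on the female numbers. RNA below 30 bases was sequenced, giving 5569392 gene-assigned reads in library 1 and 4336759 in library 2. With 1 group there was no condition to compare, so the values describe this muscle and the difference between its libraries.

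MicroRNAs guide Argonaute proteins to messenger RNAs that pair with the seed, bases 2 to 8 of the mature strand, and so lower their output. Mir451a and Mir144 are cut from 1 transcript that the erythroid factor GATA1 switches on, and the Mir451a hairpin is matured by Argonaute 2 and not by Dicer. Among the leukocyte genes, Mir142 is active across blood lineages, Mir223 marks neutrophils and other myeloid cells, and Mir150 marks mature lymphocytes. Mir155 and Mir146 are induced when immune cells are activated and act on inflammatory signalling, and both can also be made by cells outside the blood.

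The mature strands below are shown because their seeds define what each miRNA can bind and because their matches to other genes bear on how reads were counted. They were read from RefSeq (GRCm38.p6), run 5′ to 3′ and carry the seed in capitals. The last 3 belong to genes that overlap or resemble a member.
miR-451a: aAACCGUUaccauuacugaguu
miR-144-3p: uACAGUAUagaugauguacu
miR-142a-3p: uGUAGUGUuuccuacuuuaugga
miR-223-3p: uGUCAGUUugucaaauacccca
miR-155-5p: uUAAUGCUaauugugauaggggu
miR-146a-5p: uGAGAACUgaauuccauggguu
miR-146b-5p: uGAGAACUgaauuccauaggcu
miR-142b: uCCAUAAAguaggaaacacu
miR-451b: uGGGAGCAgcaagagaaccgu

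RefSeq mature sequences matched all 7 members, with 12 strands in all. They held no miR-150-5p, so its seed was not compared and it is named only. Among the 12 strands, no seed was shared between members. Of the 1738 mature sequences, only miR-146b-5p came from another gene and had the seed of 1 of these strands. It has the seed of miR-146a-5p. The strands miR-146a-5p and miR-146b-5p are identical over their first 17 bases. They differ by G18A and U21C, counted from the 5′ end with the miR-146a-5p base first. Their hairpins share a run of 21 bases, gcucugagaacugaauuccau. A read confined to that run matches both genes and would be in the line for reads matching several places, which belongs to no gene. Mir146b, on chromosome 19, had 0 counts in both libraries, and the one-sided 95% limit for a count of 0, taken as 3 counts, is 0.539 CPM in the first and 0.692 in the second. Mir146 may likewise be undercounted, and its level is uncertain for that reason.

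The other members shared no run longer than 16 bases with any counted gene. The longest, of 16 bases, was between Mir451a and Mir451b, and the longest run of Mir144, Mir142, Mir150 and Mir155 was 13 bases each and that of Mir223 was 12 bases. Copies outside the counted genes were not searched.

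In the mm10 assembly, Mir144 (ENSMUSG00000065401.1, chr11:78073005-78073070, plus strand) lies 99 bases before Mir451a (ENSMUSG00000070065.1, chr11:78073170-78073241, plus strand). Neither lies inside an annotated gene on its own strand, and the nearest protein-coding gene is Eral1, 134 bases from Mir451a on the minus strand. Mir142 (ENSMUSG00000105196.1, chr11:87756864-87756927, plus strand) lies in an intron of its noncoding host Mir142hg. Mir223 (ENSMUSG00000076066.1, chrX:96242817-96242926, plus strand) lies in an exon of the noncoding gene F630028O10Rik. Mir155 (ENSMUSG00000065397.1, chr16:84714140-84714204, plus strand) lies in an exon of its noncoding host Mir155hg. Mir150 (ENSMUSG00000065495.1, chr7:45121757-45121821, plus strand) and Mir146 (ENSMUSG00000065601.1, chr11:43374397-43374461, minus strand) overlap no other annotated gene. Apart from Mir144 and Mir451a, no member lies within 50000 bases of another.

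Strand decided whether 2 of the members could be seen at all. Mir451b covers all 72 bases of Mir451a on the opposite strand, and Mir142b covers all 64 bases of Mir142. The reverse complement of miR-142b lies whole within miR-142a-3p, over 20 bases, so reads of this pair are told apart by strand alone. On its own strand Mir451a had 396 counts in library 1 and 412 in library 2, and Mir142 had 895 and 410. With strand ignored both genes had 0 counts in both libraries, because a read over 2 genes is then listed as ambiguous.

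The strand assignment of these reads was nearly one-sided. Mir451b had 0 and 1 counts of its own, and Mir142b had 0 in each library. The opposite-strand column held 0 counts for Mir451a in library 1 and 1 in library 2, 2 and 0 for Mir150, and 0 in both for the other 5 members. The counts of Mir144, Mir223, Mir155 and Mir146 were the same with and without strand, and Mir150 gained 2 counts in library 1. Own-strand counts are used from here on.

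**Figure D1:**
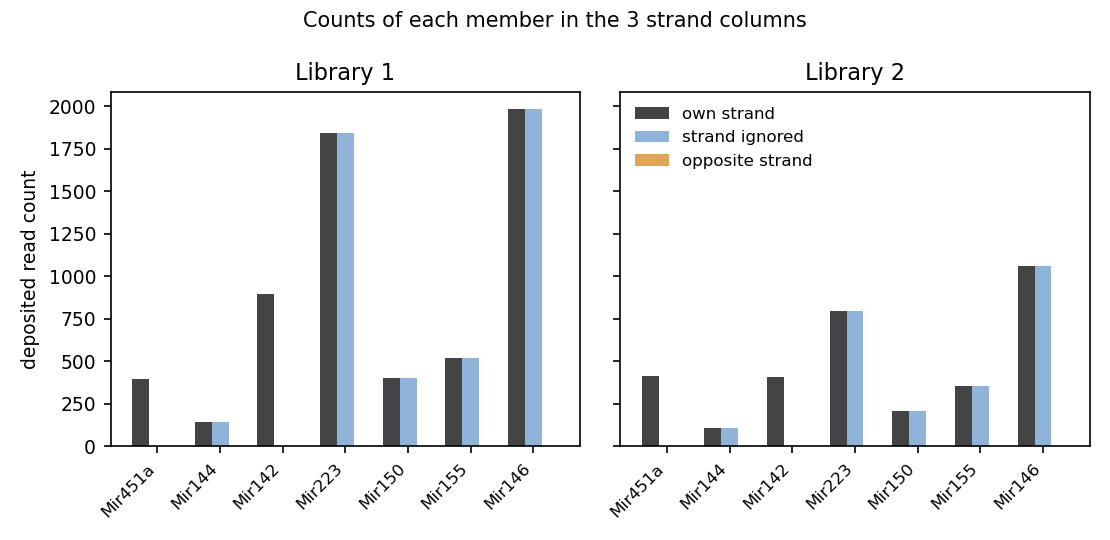
Deposited read counts (vertical axis) of the 7 members on their own strand, with strand ignored and on the opposite strand, in library 1 (left) and library 2 (right). Mir451a and Mir142 have bars on their own strand only, and the opposite-strand counts of at most 2 are too small to show.

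Together the 7 members held 6183 reads in library 1 and 3346 in library 2. That was 0.0941% ± 0.0239 (SD, n = 2) of the gene-assigned reads, of which the leukocyte members made up 5644 reads in library 1 and 2828 in library 2. The muscle-lineage gene Mir206 had 117 times the reads of all 7 together in library 1 and 155 times in library 2. By mean level the members ranked between 138 (Mir146) and 229 (Mir144) among the 2202 counted genes. They lay on both sides of the median of the 335 detected genes, whose median of mean level was 123 CPM. In bulk tissue, fewer cells of a type and less RNA per cell cannot be told apart.

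The erythroid pair lay below the median of the detected genes, with Mir451a above or level with 44.2% of them and Mir144 with 31.9%. Mir451a, an abundant miRNA of maturing red cells, stood at 71.1 CPM in library 1 (95% exact Poisson interval 64.3 to 78.5) and 95 CPM in library 2 (86.1 to 104.6). Mir144, its upstream partner in the same transcript, stood at 25.7 CPM (21.6 to 30.2) and 24.4 CPM (20.0 to 29.6). Mir451a was thus higher in library 2, with intervals that did not overlap, and Mir144 was alike in both. Of the reads for the pair, Mir451a took 73.5% in library 1 (Clopper-Pearson interval 69.5 to 77.2) and 79.5% in library 2 (75.8 to 82.9), intervals that overlapped. Counts of Mir451a per count of Mir144 were 2.77 (2.28 to 3.38) in library 1 and 3.89 (3.13 to 4.86) in library 2. In both libraries more reads therefore came from Mir451a than from Mir144. These and all later intervals have a level of 95% and hold for counting error alone, because reads copied by PCR were not marked with molecular identifiers and need not stand for separate molecules.

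The leukocyte members were led by Mir146, a brake on Toll-like receptor signalling, and by the myeloid gene Mir223. Mir146 stood at 357 CPM in library 1 and 244 CPM in library 2, and Mir223 at 331 CPM and 184 CPM. Both were lower in library 2. Mir142, of most blood lineages, stood at 161 CPM and 94.5 CPM, again lower in library 2. Mir155, a product of activated lymphocytes and macrophages, stood at 92.8 CPM (85.0 to 101) and 81.9 CPM (73.6 to 90.8), with overlapping intervals. Mir150, of mature lymphocytes, stood at 72.2 CPM and 47.5 CPM and was the lowest of the 5 in both libraries.

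**Figure D2:**
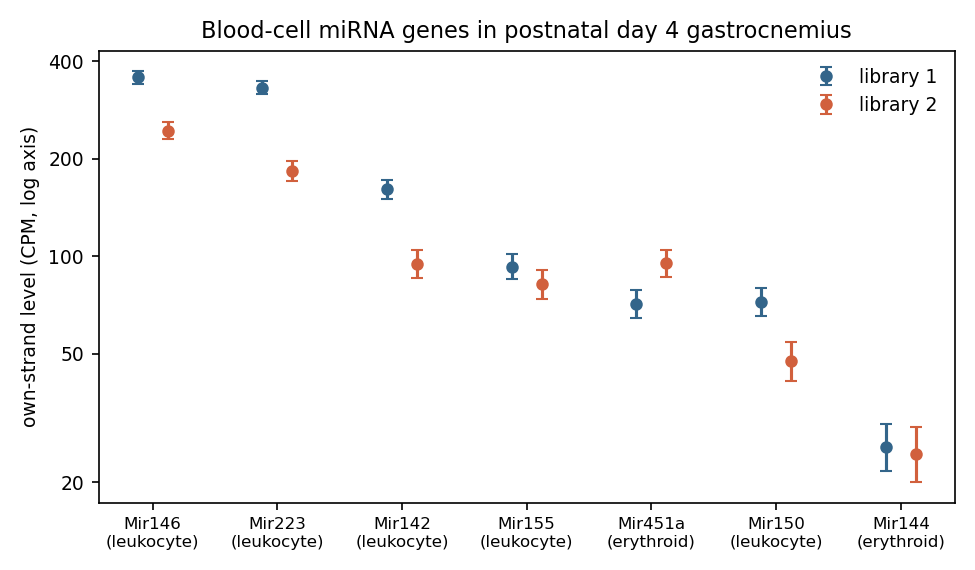
Level of each member on its own strand in CPM (log axis), ordered by mean, with 1 point per library and 95% exact Poisson bars. Mir146 and Mir223 lead in both libraries, Mir451a alone lies clearly higher in library 2, and Mir144 is lowest.

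Across the members the order by mean level was Mir146, Mir223, Mir142, Mir155, Mir451a, Mir150 and Mir144. These levels are CPM per gene and were not divided by hairpin length, because a read covers a whole mature strand. Adapter ligation is known to favour some miRNA ends over others, and its part in the order was not tested. The 2-library ranges of neighbours overlapped between Mir146 and Mir223, between Mir155 and Mir451a, and between Mir451a and Mir150, so those neighbours did not differ beyond the spread between libraries. Within each library, however, Mir146 had more counts than Mir223, at 1.08 per count of Mir223 (1.01 to 1.15) in library 1 and 1.33 (1.21 to 1.46) in library 2. Mir155 and Mir451a, and Mir451a and Mir150, also changed places between the libraries. The ranges did not overlap between Mir223 and Mir142, between Mir142 and Mir155, where the gap was from 92.8 to 94.5 CPM, or between Mir150 and Mir144. The largest member, Mir146, was above 59.1% of the detected genes or level with them, and the smallest, Mir144, above 31.9%.

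Between the libraries, the leukocyte members had a sum of 1013 CPM (library 1) and 652 CPM (library 2). Scaled by TMM, as are all ratios between libraries below, the sum was 1.58-fold lower in library 2, a log2 ratio of library 2 to library 1 of -0.66 (counting interval -0.72 to -0.59). The erythroid sum went the other way, at 96.8 CPM and 119 CPM, with a log2 ratio of 0.28 (0.10 to 0.46), which turns to -0.12 with strand ignored, when only Mir144 has counts. Leukocyte reads per erythroid read, a ratio that does not depend on scaling, were 10.5 (9.58 to 11.5) in library 1 and 5.46 (4.97 to 6.01) in library 2. The balance between the lists thus differed between these libraries by more than counting error.

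Each gene was then compared between the libraries by an exact two-sided binomial test of its counts, adjusted over the 335 detected genes. This compares the libraries and no conditions, and the difference has no replicate check. Over all detected genes 55.5% were called different, 26.9% lower in library 2 and 28.7% higher. Of the 5 leukocyte members 4 were called lower and none higher. Of the 2 erythroid members 1 was called higher and none lower. With so many genes called, a call alone does not set a gene apart, so each size is also given against all detected genes.

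Mir223 was 1.83-fold lower in library 2 (1.68 to 1.99), a log2 ratio of -0.87 with an adjusted p of 3.5e-48 by the exact counting test. A ratio that low or lower was found in 4 of the 335 detected genes, Mir223 included. Mir142 was 1.73-fold lower (1.53 to 1.95), at -0.79 with an exact adjusted p of 2.9e-20, and 7 genes were that low or lower. These blood-lineage genes therefore lay at the lower edge of all detected genes. Mir150 was at -0.63 (-0.88 to -0.38; exact adjusted p = 8.79e-07), with 16 genes that low or lower, and Mir146 was at -0.57 (-0.68 to -0.46; exact adjusted p = 4.59e-25), with 19.

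Mir155 had the ratio nearest 0 of the leukocyte members. Its log2 ratio was -0.20 (-0.40 to -0.01), the exact adjusted p was 0.0694, and 84 of the 335 genes were that low or lower. With DESeq2 size factors the ratio was -0.24 and the call was made, at an exact adjusted p of 0.0343. Its interval did not overlap those of Mir223, Mir142 or Mir146 but overlapped that of Mir150. Mir451a was called higher at 0.40 (0.19 to 0.60; exact adjusted p = 0.000279), and 51 genes were that high or higher. Mir144 was not called at -0.09 (-0.47 to 0.28; exact adjusted p = 0.749), and its interval overlapped that of Mir451a. The median log2 ratio was -0.63 for the 5 leukocyte members and 0.15 for the 2 erythroid members, against 0.03 for all detected genes, of which 90% lay between -0.60 and 1.11.

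**Figure D3:**
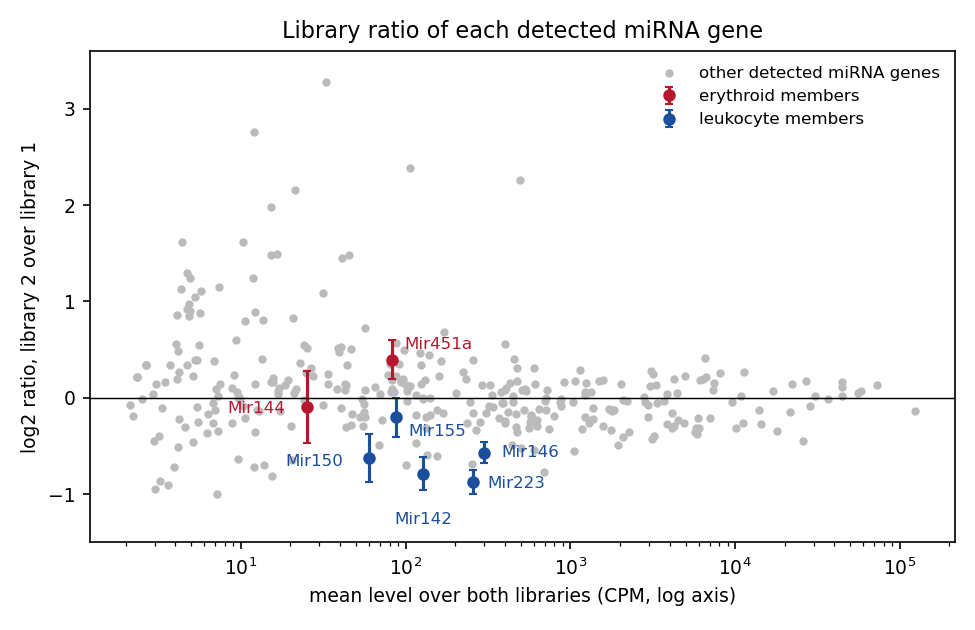
Log2 ratio of library 2 to library 1 (vertical axis) against mean level in CPM (log axis) for the 335 detected genes, with members in colour and 95% counting bars. The leukocyte members Mir223, Mir142, Mir150 and Mir146 lie along the lower edge of the grey cloud, Mir155 nearer 0, and Mir451a above 0.

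Shares within the leukocyte reads do not depend on scaling, and those of Mir155 and Mir223 differed between the libraries. Mir155 took 9.16% of these reads in library 1 (Clopper-Pearson interval 8.42 to 9.94) and 12.6% in library 2 (11.4 to 13.8). Mir223 took 32.7% (31.4 to 33.9) and 28.2% (26.5 to 29.9). The share of Mir155 was thus higher in library 2 and that of Mir223 lower, with no overlap of the intervals. The shares of Mir146, at 35.2% and 37.5%, of Mir142, at 15.9% and 14.5%, and of Mir150, at 7.12% and 7.28%, had overlapping intervals. Mir223 and Mir142 kept close proportions, with 2.06 counts of Mir223 per count of Mir142 (1.90 to 2.23) in library 1 and 1.94 (1.72 to 2.20) in library 2.

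**Figure D4:**
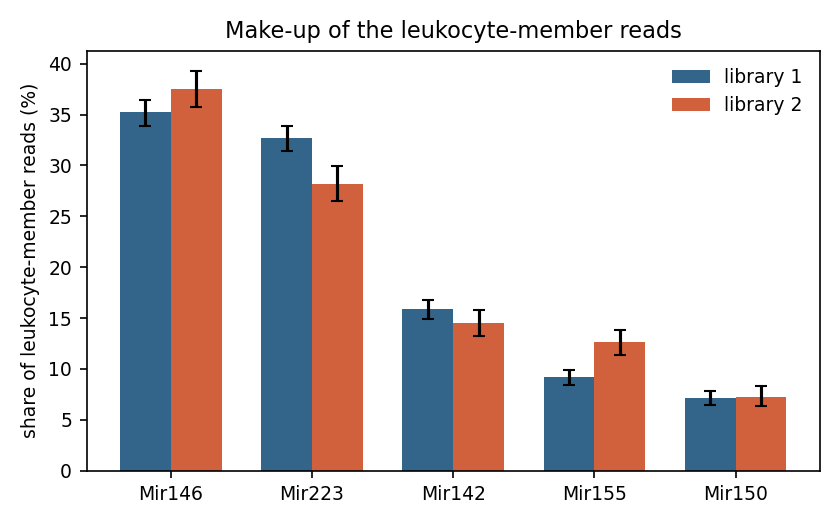
Share of the leukocyte-member reads (percent, vertical axis) taken by each of the 5 genes in each library, with 95% Clopper-Pearson bars. The bars of Mir223 and Mir155 differ between libraries in opposite directions, and the intervals of Mir146, Mir142 and Mir150 overlap.

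A wider list of 25 miRNA genes with known roles in blood cells, most of them also made by other tissues, gave no single direction. Of these, 24 were in the tables under the listed symbols and 22 were detected, of which 8 were lower in library 2, 5 were higher and 9 were not called. Over all detected genes 26.9% were called lower and 28.7% higher. Their median log2 ratio was -0.09, against 0.03 for all detected genes. The most abundant were Mir21a at 16868 ± 766 CPM (SD, n = 2), Mir130a at 4870 ± 558 CPM and Mir125a at 2282 ± 370 CPM. The lowest called ratio was that of Mir16-2, a miR-15/16 gene active in many cell types, at -0.70 (-0.89 to -0.51). The highest was that of Mir181b-1, a member of a family active in lymphocyte development, at 1.05 (0.18 to 1.95), from 19 and 31 counts. Mir16-1 and Mir16-2 encode the same miR-16 strand, and Mir181b-1 and Mir181b-2 the same miR-181b strand, so reads confined to those strands match several places and the levels and ratios of these genes are uncertain. Mir486, which is made in both red cells and muscle, was at 0.22 (0.03 to 0.42; exact adjusted p = 0.0462). Mir3107 overlaps Mir486 on the opposite strand, and the 445 and 411 counts of Mir486 fell to 0 with strand ignored. Sequence shared by this pair was not searched, so the level and ratio of Mir486 are uncertain.

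Of the 196 other genes at 50 CPM or more in both libraries, the 3 nearest to the leukocyte sum in log2 ratio were Mir16-1 at -0.68, Mir16-2 at -0.70 and Mir208b, which lies in a slow myosin gene, at -0.60. The likeness is over 2 libraries only. Only 3 of those 196 genes, which leave out the members, had a ratio as low as that of the leukocyte sum or lower. Mir16-1 and Mir16-2 were among these, and their ratios are uncertain for the reason given above. The remaining gene was Mir195a, at -0.76 and a mean level of 689 CPM. Sequence it may share with other genes was not searched. Nearest to the erythroid sum were Mir770 at 0.29, Mir341 at 0.27 and Mir541 at 0.27, and 17 of the 196 genes had a ratio as high or higher.

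Markers of other cell types also differed between the libraries. Their calls stand beside those over all detected genes, of which 26.9% were called lower in library 2 and 28.7% higher. The endothelial list, 2 genes of which 1 was detected, was at 29519 CPM in library 1 and 21932 CPM in library 2, nearly all of it Mir126a at a log2 ratio of -0.45, since Mir126b had 3 and 2 counts. The connective tissue list, with 4 of 5 genes detected, was at 5418 CPM and 4243 CPM, and 2 of the 4 were called lower. The skeletal muscle list, with 7 of 8 genes detected, was at 130918 CPM and 120607 CPM, with 3 of the 7 called lower, among them Mir206 at -0.14, and 4 not called, among them Mir133b at 0.09. Mir206 held 720323 of the 729132 counts of this list in library 1 and 517475 of the 523043 in library 2. Sequences shared among the genes of these lists were not searched. Reads matching several places are in no gene, so the list totals may be undercounted. None of the genes of these 3 lists was at 0 in both libraries. Smooth muscle genes, both detected, summed to 25509 CPM and 29100 CPM, but went opposite ways, with Mir143 called higher at 0.17 and Mir145a called lower at -0.12. The epithelial list was at 267 CPM and 375 CPM, with 5 of 7 genes detected and all 5 called higher. The liver and gut list was at 214 CPM and 867 CPM, with 4 of 6 genes detected, 1 called higher, 1 called lower and Mir194-1 at 0 in both, and its difference rests on Mir122, a liver gene with 942 and 3573 counts of the 1190 and 3760 in the list. The neural list was at 350 CPM and 342 CPM, with 2 of 9 genes detected and Mir124a-2, Mir124a-3 and Mir9-2 at 0 in both. The part of these differences in the blood-cell results was not tested, and differences between the animals cannot be told apart from those of dissection or library preparation.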

How the data were processed

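The authors deposited raw counts per gene for each library, made against mm10 with GENCODE M21 per the files' accompanying text. For the aligner and counter, the sources used here give no name. Column meanings (strand ignored, own strand, opposite strand) were read from the column sums. The 4 lines naming no gene were left out of library sizes. They held 36.9% (several places), 8.03% (unmapped) and 1.70% (no feature) of reads in library 1, and 37.6%, 9.26% and 2.09% in library 2.

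All 2202 identifiers matched GENCODE M21 symbols. Ratios used TMM factors over detected genes (edgeR 4.0.16, R 4.3.3) and an exact two-sided binomial test across all 335 detected genes with Benjamini-Hochberg adjustment at 0.05, checked on simulated data. The simulated counts were Poisson draws, which the test itself assumes, so that check could not cover spread beyond counting error. Over the detected genes, the common dispersion of edgeR between the libraries was a coefficient of variation (SD over mean) of 22%. DESeq2 1.42.0 size factors, library totals, other detection limits, unstranded counts and single libraries were alternatives. TMM over all counted genes was added after seeing the data. Other steps used Python 3.11.15 and scipy 1.17.1.

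The members and lists were chosen with earlier results of these data known. Genes named are the members, genes overlapping them or sharing 16 or more bases, the 3 highest and the extreme called genes of the wider blood list, the first 2 muscle, endothelial and smooth muscle markers, and the 3 nearest each sum in ratio. Mir486, Mir3107, Mir122, Mir181b-2, Mir195a and the markers at 0 were named after their values were seen.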

Additional observations from a re-analysis of the deposited data

Results flagged for a closer look

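Reads matching several places were counted in no gene and took 36.9% (library 1) and 37.6% (library 2) of everything sequenced, or 3842752 and 3187607 reads. The tables do not say which genes they match. Among the 7 members only Mir146 shared more than 16 bases with another counted gene.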

How the results depend on the processing

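No paired analysis was possible because the series has 1 group. Of 79 recomputed values, 67 kept their direction and side of the threshold or moved by less than their error. A count of members within 1.5 times its main value was taken as unmoved. Part of the 67 was fixed in advance. With n = 2, a single library always lies within 1 SD of the mean share or mean count ratio. Members detected in both libraries had to stay detected in each alone and under a looser limit. Other detection limits left every log2 ratio as it was and could change only the adjusted p. With strand ignored, 5 of the 7 members were detected, as Mir451a and Mir142 dropped out, and the 4 called lower held Mir155 in place of Mir142. There the erythroid share fell from 0.0108% to 0.00286%, its log2 ratio turned from 0.28 to -0.12 and the number of members called higher went from 1 to 0, because Mir451a then had no count; for the same reason Mir451a per Mir144 was 0. No ratio of Mir451a or Mir142 could be given there. With all reads as the denominator the shares were 0.00564% (erythroid) and 0.0437% (leukocyte). Without Mir146 the leukocyte share was 0.0532%. The leukocyte log2 ratio was -0.57 without Mir223 and -0.73 with TMM over all counted genes. That scaling, chosen after seeing the data, put 61.3% of all called genes lower in library 2, against 48.4% with TMM over detected genes. Mir155 was called lower with strand ignored (adjusted p = 0.044 by the exact counting test), with DESeq2 size factors (0.0343) and with TMM over all counted genes (0.0116), and not in the other 3 settings, over which the adjusted p ran from 0.0599 to 0.138. Single libraries gave erythroid shares of 0.00968% and 0.0119% and leukocyte shares of 0.101% and 0.0652%. Depth limits Mir144 most, with 143 and 106 counts.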
